A study of Homo sapiens with 12 samples.

Results

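The enzymes that make, reduce and oxidise steroids were followed in LNCaP, an androgen-responsive human prostate cancer cell line. The 10 genes were *STAR*, *CYP11A1*, *SRD5A1*, *SRD5A3*, *AKR1C3*, *HSD17B1*, *HSD17B4*, *HSD17B6*, *HSD17B10* and *HSD17B11*. Every array probe that the deposited signal table names by one of these symbols was taken, which gave 13 of 47323 probes and 10 of 34602 gene symbols: 3 for *STAR*, 2 for *HSD17B11* and 1 for each of the other genes. Of these, 10 probes from 9 genes were detected on enough arrays to be tested, and the 3 left out were all *STAR* probes.

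Cells in phenol-red-free medium with 2% steroid-depleted serum received either a control siRNA or an siRNA against ERRγ (estrogen-related receptor gamma, gene *ESRRG*). After 48 h they were reseeded and given 10 nM R1881, a synthetic androgen, or ethanol as vehicle, for 72 h. Each of the 2 siRNAs was thus combined with vehicle and with R1881, giving 4 groups of 3 arrays. All groups shared the steroid-depleted serum and a transfection with siRNA, and all came from 1 cell line. The labels speak only of triplicates, and nothing says that they were separate cultures, so p-values cover only the spread between arrays, part of which may be technical.

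Steroid synthesis starts when cholesterol is carried into the mitochondrion and its side chain is cut off to give pregnenolone. Further enzymes turn pregnenolone into androgens, and in the prostate the last steps decide how much active androgen the cell holds: the HSD17B family and AKR1C3 convert weak keto steroids to strong hydroxy steroids or back, and the SRD5A reductases turn testosterone into dihydrotestosterone, the strongest natural androgen. Prostate cancers under androgen deprivation are known to use such enzymes to supply their own androgen. Several HSD17B proteins also have main duties elsewhere, in fatty acid or amino acid breakdown.

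The promoters of *CYP11A1* and *HSD17B11*, the members whose signals rose most with R1881, are shown because the siRNA targets a DNA-binding receptor. They are the 250 bases before the RefSeq gene start on GRCh38.p14, written 5′ to 3′ on the gene's own strand, chr15:74367647-74367896 on the minus strand and chr4:87391189-87391438 on the minus strand. Capitals mark a match to CAAGGNCA, called the extended letters here and read from the opposite strand as TGGCCTTG. The extended letters are AAGGTCA, recognition letters of the estrogen-related receptors, with a C in front and the T loosened to any base. The match shown has another base in place of that T. It is thus no match to AAGGTCA and is not taken as a site of these receptors.
CYP11A1: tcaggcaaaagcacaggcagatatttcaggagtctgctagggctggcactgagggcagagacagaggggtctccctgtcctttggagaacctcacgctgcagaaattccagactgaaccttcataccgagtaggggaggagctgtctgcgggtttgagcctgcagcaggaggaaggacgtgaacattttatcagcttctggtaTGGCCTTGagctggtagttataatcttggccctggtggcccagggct
HSD17B11: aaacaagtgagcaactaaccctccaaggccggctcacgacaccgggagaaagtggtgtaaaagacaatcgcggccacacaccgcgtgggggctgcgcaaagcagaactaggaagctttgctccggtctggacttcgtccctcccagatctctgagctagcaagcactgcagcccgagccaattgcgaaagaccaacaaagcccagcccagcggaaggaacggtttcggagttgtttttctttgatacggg
The match in *CYP11A1* begins 47 bases before the start, and CAAGGNCA on either strand occurs in 4.52% of all 34943 promoter windows of this length. The *HSD17B11* window holds no such match. RefSeq windows of 7 members were searched, without *STAR*, *HSD17B1* and *HSD17B6*. None of the 9 windows searched held AAGGTCA, the shorter letters (3.44% of all windows, either strand). AAGGTCA overlaps the extended letters where a C precedes it. The extended letters were added after the first search, and a match or its lack is a description of these letters only. The probes' own sequences were not used here.

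On each array 18698 to 20536 probes were detected, that is, above the array's negative controls at a detection p under 0.05. Between arrays of one group the correlation of log2 signals over probes was 0.989 to 0.995. The 3 *ESRRG* probes were detected on no array, with raw signals of 86.0 to 99.9, so the depletion of the siRNA's target could not be checked here. The androgen response was present: *KLK3* (prostate-specific antigen) was 44.5-fold higher with R1881 under control siRNA and 36.9-fold higher under ERRγ siRNA. *FKBP5*, another androgen-induced gene, rose by 4.08 and 3.82 on the log2 scale. *ESRRA*, the related receptor ERRα, was detected on all 12 arrays and passed no test between 2 groups (limma adjusted p from 0.505 to 0.956). Luminal and basal markers fitted the labelled cell type, with 8 of 9 luminal prostate genes detected on all 12 arrays and 2 of 4 basal markers on none. The defining genes of adrenal and gonadal steroid-making cells were at background: 7 of 8 were detected on no array and *CYP19A1* (aromatase) on 2, and the summed raw signal of the list lay between 714.7 and 780.8 on every array. Of 5 stromal markers 2 were detected on all arrays and 2 on none. Their summed raw signal was 640.4 to 695 and 671 to 721 in the vehicle groups and 841 to 891 and 964 to 1112 in the R1881 groups. *ACTA2*, an actin of smooth muscle, carried that difference, with mean raw signals of 256 and 273 in vehicle and 467 and 630.02 in R1881, while *COL1A1*, a collagen, read 127 and 118 in vehicle and 113 and 113 in R1881; their part in the results below was not tested. Immune markers summed to 437 to 496 and 443 to 452 in the vehicle groups and to 475 to 508 and 491 to 512 in the R1881 groups. Of them *CD68* was detected on all 12 arrays, *CD79A* on 7, *CD3E* on 1 and *PTPRC* on none.

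The first question was how the enzymes respond to androgen. With control siRNA, R1881 changed 8 of the 10 tested probes (limma, adjusted p under 0.05, Benjamini-Hochberg over all 21959 tested probes): 6 rose, for *CYP11A1*, both *HSD17B11* probes, *HSD17B4*, *SRD5A3* and *SRD5A1*, and 2 fell, for *HSD17B1* and *AKR1C3*. R1881 changed 39.6% of all tested probes, 18.9% higher and 20.7% lower. With ERRγ siRNA, 7 of the 10 changed, with the same 6 higher and *AKR1C3* lower, while 36.6% of all tested probes changed, 17.4% higher and 19.2% lower. The median log2 change of the 10 probes was 0.40 and 0.34 with the 2 siRNAs, beside -0.01 over all probes in both. R1881 and vehicle arrays did not overlap for 7 of the 10 with control siRNA and 8 with ERRγ siRNA. Over all tested probes the shares without overlap were 46.7% and 48.9%. Probes that were detected only in one group passed the detection filter through that group, so these counts describe the tested probes and not the gene set. The members were also chosen with earlier results of these data known, so neither the counts nor the medians are a test of the set.

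**Figure D1:**
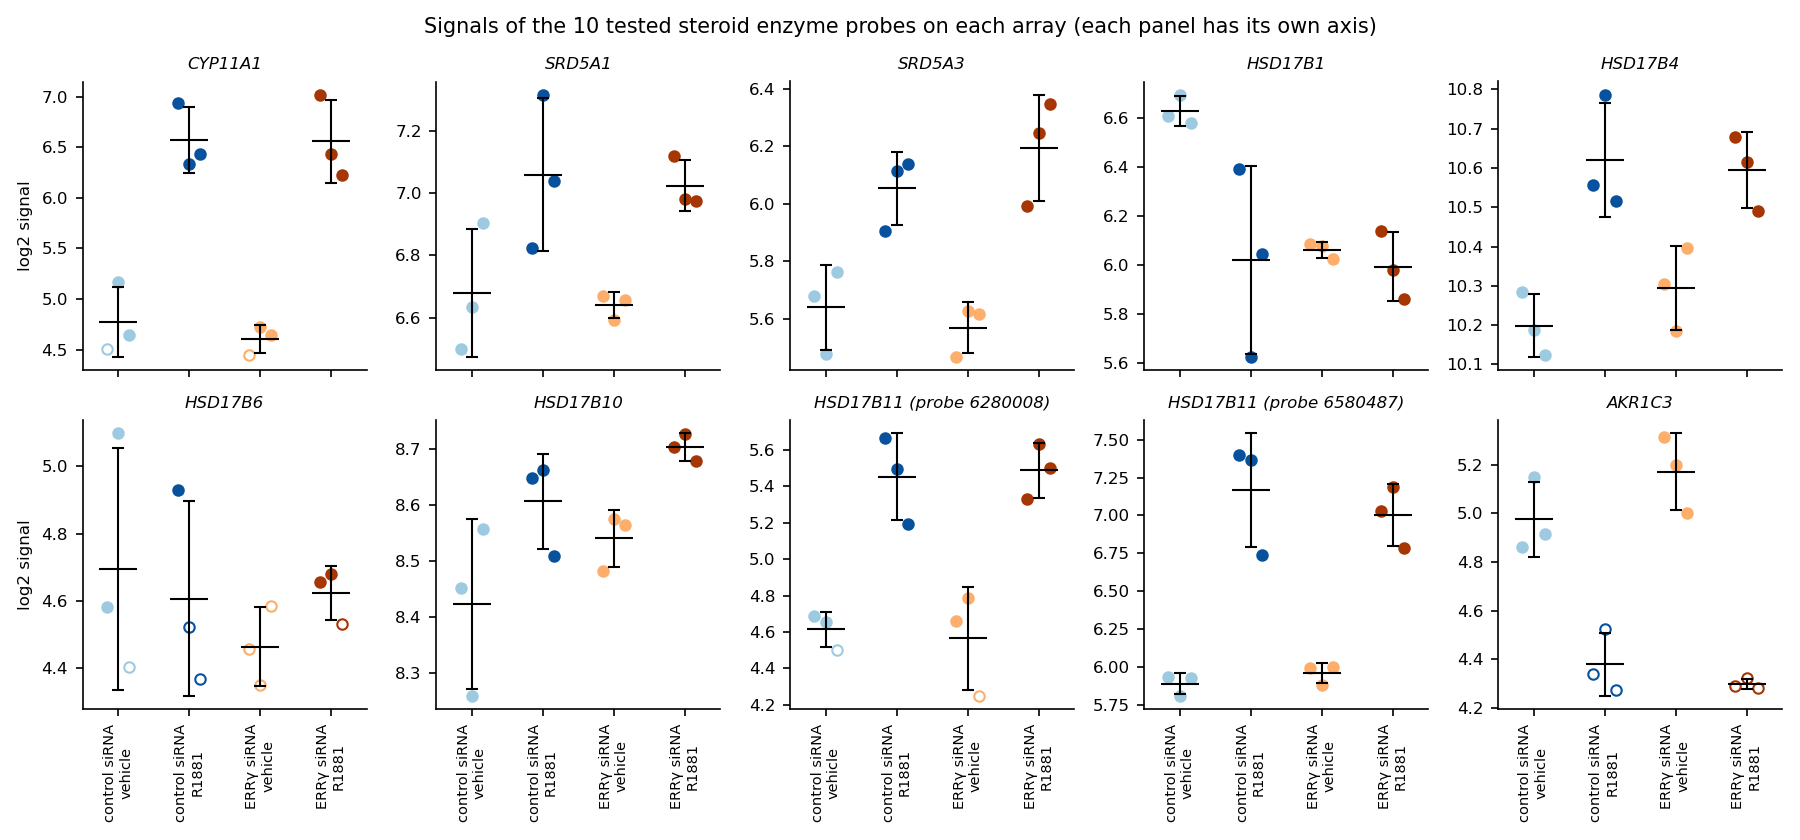
Normalized log2 signal (vertical axis, one scale per panel) of the 10 tested probes on each of the 12 arrays, by siRNA and treatment (horizontal axis). Bars are the mean ± SD of 3 arrays and open circles are arrays on which the probe was not detected; the R1881 points of *CYP11A1* and *HSD17B11* lie wholly above the vehicle points, and those of *AKR1C3* lie below.

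**Figure D2:**
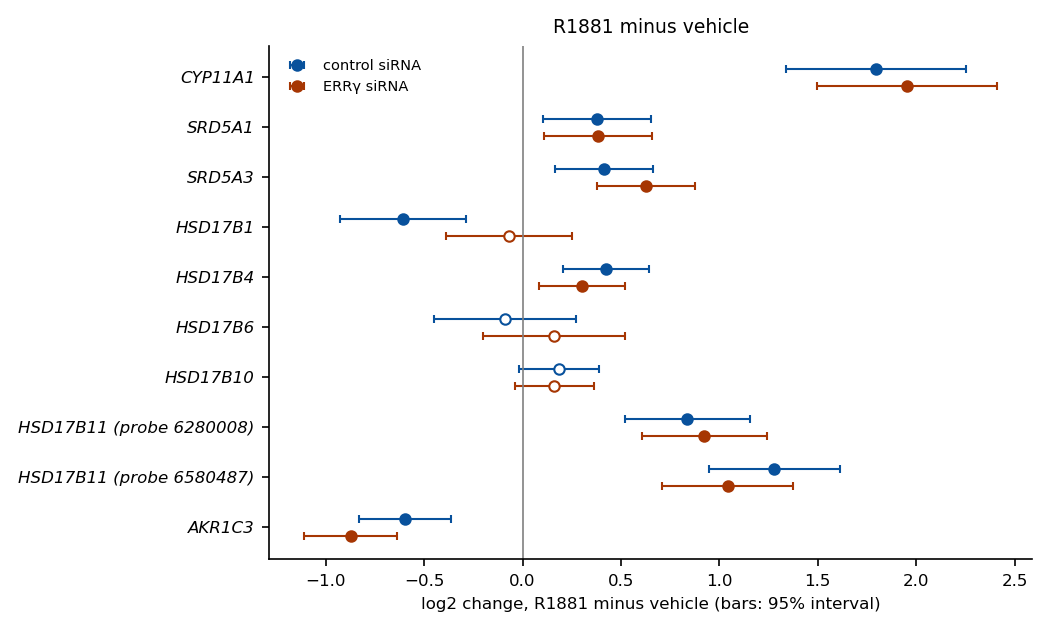
Log2 change with R1881 (horizontal axis) of each tested probe (vertical axis), with control and with ERRγ siRNA. Bars are 95% intervals and filled points have an adjusted p under 0.05; *CYP11A1* has the largest rise of these probes with each siRNA, at 1.79 and 1.96, and *AKR1C3* is drawn at its measured change, although it was not detected with R1881.

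*STAR*, which carries cholesterol to the inner mitochondrial membrane, was not detected on any array by any of its 3 probes. Under control siRNA, probe 20750 had raw linear signals of 94.4, 85.6 and 87.9 in vehicle and 95.9, 91.8 and 92.1 in R1881. Under ERRγ siRNA the arrays read 93.7, 91.6 and 93.9 in vehicle and 91.1, 92.1 and 92.9 in R1881. The other probes ranged from 87.6 to 98.6 and from 84.2 to 96.1, and the lowest detection p over the 3 probes was 0.240. Their signals were thus those of the array background in every group, and no change was tested.

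*CYP11A1* encodes the side-chain cleavage enzyme that makes pregnenolone from cholesterol. Its raw signal was 99.5, 109 and 99.2 with control siRNA and vehicle, and 192, 159 and 166 with control siRNA and R1881. With ERRγ siRNA it was 97.5, 104 and 102 in vehicle, and 208, 170.4 and 156 in R1881. The R1881 arrays lay above the vehicle arrays without overlap. Here and below, such a lack of overlap was common, at 46.7% and 48.9% of all tested probes with the 2 siRNAs. The vehicle signals stood near the background, with detection on 2 of 3 arrays in each vehicle group and 3 of 3 in each R1881 group. The normalized log2 signal rose from 4.77 ± 0.35 to 6.57 ± 0.33 (mean ± SD, n = 3 arrays) with control siRNA, a log2 change of 1.79 ± 0.21 (SE; 3.47-fold; limma adjusted p = 1.12e-05). With ERRγ siRNA it rose from 4.60 ± 0.14 to 6.56 ± 0.41, a log2 change of 1.96 ± 0.21 (3.88-fold; limma adjusted p = 5.07e-06). These changes were larger than those of 99.1% and 99.3% of tested probes. For a probe this dim the size depends on the background correction: the log2 change was 0.72 and 0.77 without one, and 0.40 and 0.42 in the authors' normalized values, and it passed the threshold in each. In bulk RNA, more RNA per cell and a larger share of cells with the transcript cannot be told apart, here and below.

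The reductases rose modestly. *SRD5A1*, which reduces testosterone to dihydrotestosterone, had raw signals of 184, 167 and 183 in vehicle and 183, 242 and 212 in R1881 with control siRNA, and the groups overlapped. With ERRγ siRNA the arrays read 179.9, 169.9 and 178 in vehicle and 218, 212 and 209 in R1881, and the groups did not overlap. The log2 change was 0.38 ± 0.13 with each siRNA (1.30-fold; limma adjusted p = 0.029 with control and 0.0298 with ERRγ siRNA). This call was marginal: without the filter on dim probes the limma adjusted p was 0.0517 and 0.053 with the 2 siRNAs. With control siRNA it was also lost with median scaling (0.055) and when only the compared groups were fitted (0.0726). Leaving out any 1 of vehicle arrays 1 and 2 or R1881 arrays 2 and 3 lost it too (0.0569 to 0.135). With ERRγ siRNA it was lost when any of its 6 arrays was left out (0.051 to 0.10). *SRD5A3* belongs to the same family and also reduces polyprenol to dolichol, the lipid carrier of protein glycosylation. Its arrays read 137, 117 and 126 in vehicle and 133, 148 and 150.3 in R1881 with control siRNA, and 123, 126 and 127 in vehicle and 142, 159 and 162 in R1881 with ERRγ siRNA. The normalized signals of the R1881 arrays were above those of the vehicle arrays with either siRNA. The log2 change was 0.41 ± 0.12 (1.33-fold; limma adjusted p = 0.0108) and 0.63 ± 0.12 (1.54-fold; limma adjusted p = 0.000627). With control siRNA the call was lost without vehicle array 2 (adjusted p = 0.0554) and with median scaling in place of quantile normalization (0.0712). In the authors' normalized values the log2 changes of *SRD5A1* were 0.15 and 0.14 and those of *SRD5A3* 0.11 and 0.17, with the calls kept.

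Among the members, both reductive dehydrogenases, *AKR1C3* and *HSD17B1*, fell with R1881 under control siRNA. *AKR1C3* reduces androstenedione to testosterone and also makes prostaglandins. Its raw signal was 109, 109 and 104 in vehicle and 94.9, 99.9 and 95.2 in R1881 with control siRNA, and 118, 114 and 109.7 in vehicle and 95.1, 97.7 and 95.5 in R1881 with ERRγ siRNA. It was detected on all 6 vehicle arrays and on none of the 6 R1881 arrays, so it passed the filter through the vehicle arrays and its fall is a bound. On the background-corrected scale the level was at least 1.30-fold lower with R1881 under control siRNA and at least 1.49-fold lower under ERRγ siRNA. Each bound sets the vehicle mean against the dimmest detected signal or the probe's own, whichever was higher. The bounds hold for that scale only. The measured log2 means were 4.98 ± 0.15 and 4.38 ± 0.13 with control siRNA and 5.17 ± 0.16 and 4.30 ± 0.02 with ERRγ siRNA. The measured log2 changes were -0.60 and -0.87, -0.19 and -0.28 without background correction, and -0.06 and -0.09 in the authors' normalized values, with the calls kept. Whether this probe tells *AKR1C3* from its close paralogs was not tested.

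*HSD17B1*, which reduces estrone to estradiol, had raw signals of 193, 171 and 162 with control siRNA and vehicle. The other groups were lower: 156, 127 and 146 for R1881 under the same siRNA, then 146, 143 and 143 in vehicle and 149, 146 and 138 in R1881 under ERRγ siRNA. The 3 arrays of control siRNA with vehicle thus lay above all 9 others, and those 9 overlapped. On the log2 scale the means were 6.63 ± 0.06, 6.02 ± 0.39, 6.06 ± 0.03 and 5.99 ± 0.14 in that order. R1881 lowered it by a log2 change of -0.61 ± 0.15 with control siRNA (limma adjusted p = 0.00468), and with ERRγ siRNA the change of -0.07 had a 95% interval from -0.39 to 0.25 (limma adjusted p = 0.763). The fall with control siRNA was -0.30 without background correction and -0.16 in the authors' normalized values, with the call kept. *HSD17B1* has a related pseudogene, and whether its probe tells them apart was not tested.

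Among the dehydrogenases that mainly oxidise, *HSD17B11*, a lipid-droplet enzyme that oxidises hydroxy androgens, rose on both of its probes. The brighter probe, 6580487, read 149, 127 and 131 in vehicle and 236, 249 and 186 in R1881 with control siRNA, and 142, 135 and 142 in vehicle and 209, 235 and 192 in R1881 with ERRγ siRNA. Every R1881 array lay above every vehicle array. The log2 change was 1.28 ± 0.15 (2.43-fold, limma adjusted p = 1.35e-05) with control siRNA. It was 1.04 ± 0.15 (2.06-fold, limma adjusted p = 9.67e-05) with ERRγ siRNA. These changes lay above those of 98.1% and 97.4% of tested probes. The dimmer probe, 6280008, read 104, 98.1 and 96.4 in vehicle and 124, 122 and 116 in R1881 with control siRNA, and 102, 105 and 91.8 in vehicle and 119, 131 and 125 in R1881 with ERRγ siRNA, and was detected on 10 of 12 arrays. Its log2 change was 0.84 ± 0.15 and 0.92 ± 0.15 (limma adjusted p = 0.000396 and 0.000185). Both probes thus rose with either siRNA. In the authors' normalized values the changes were 0.43 and 0.34 for the brighter probe and 0.13 and 0.14 for the dimmer one, with the calls kept.

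*HSD17B4* is a peroxisomal enzyme of fatty acid breakdown that also oxidises estradiol. It read 1492, 1117 and 1029 in vehicle and 1609, 1880.5 and 1601 in R1881 with control siRNA, and 1222, 1109 and 1342 in vehicle and 1812, 1844 and 1649.5 in R1881 with ERRγ siRNA. All R1881 arrays were above the vehicle arrays. The log2 change was 0.42 ± 0.10 (1.34-fold; limma adjusted p = 0.00425) with control siRNA and 0.30 ± 0.10 (1.23-fold; limma adjusted p = 0.032) with ERRγ siRNA. The second call was lost without vehicle array 1 or 2 or R1881 array 1 or 2 of the ERRγ siRNA groups, with adjusted p of 0.0681 to 0.120. The probe is far above background, and the authors' normalized values gave close sizes, 0.45 and 0.34.

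*HSD17B10*, a mitochondrial enzyme of isoleucine breakdown and a subunit of the mitochondrial RNase P, read 483, 353 and 403 in vehicle and 467, 506 and 453 in R1881 with control siRNA, and 422, 428 and 448 in vehicle and 507, 545 and 513 in R1881 with ERRγ siRNA. The log2 changes of 0.18 and 0.16 did not pass the test (limma adjusted p = 0.146 and 0.207). A further probe, which the table calls HADH2 but pairs with the accession of *HSD17B10*, falls outside the symbol rule; its log2 changes were 0.06 and 0.17 (limma adjusted p = 0.597 and 0.12). *HSD17B6*, which oxidises androstanediol back to dihydrotestosterone, stayed near background at raw signals of 94.2 to 107 and was detected on 5 of 12 arrays. Its log2 changes were -0.09 and 0.16 (limma adjusted p = 0.727 and 0.506).

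The second question was whether the ERRγ siRNA altered these enzymes. In vehicle none of the 10 probes passed limma's test, and 1, *HSD17B1*, had an unadjusted p under 0.05, as had 3189 of all probes; 50 of all 21959 tested probes passed (0.228%), 5 higher (0.0228%) and 45 lower (0.205%). In R1881 none of the 10 passed and none had an unadjusted p under 0.05, and over all probes 0 passed (0%) with 1366 at an unadjusted p under 0.05. The median log2 change of the 10 probes was -0.04 in vehicle and -0.02 in R1881. In vehicle the *HSD17B1* change was -0.57 ± 0.15, with a 95% interval from -0.89 to -0.25 (limma unadjusted p = 0.00196, adjusted p = 0.125). All 3 ERRγ siRNA arrays were below all 3 control arrays, for which the exact permutation test gives its smallest possible p of 0.1; in this comparison 21.3% of all tested probes did not overlap. The call appeared without background correction (-0.29, limma adjusted p = 0.0428), with a background offset of 50 (-0.40, 0.0386), when only the vehicle groups were fitted (0.0372), and without array 1 or 2 of control siRNA with R1881 (0.0386 and 0.0465), but not in the authors' normalized values (-0.17, 0.0885), with median scaling (0.0923), with no filter (0.200), over probes detected on all 12 arrays (0.0733), with 1 probe per gene (0.116), or without any 1 array of the compared groups (0.162 to 0.320). The other 9 probes had log2 differences in vehicle from -0.23 (*HSD17B6*) to 0.20 (*AKR1C3*) with limma adjusted p of 0.434 to 0.922, and in R1881 the 10 ranged from -0.17 (*HSD17B11*) to 0.14 (*SRD5A3*) with 0.898 to 0.996.

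**Figure D3:**
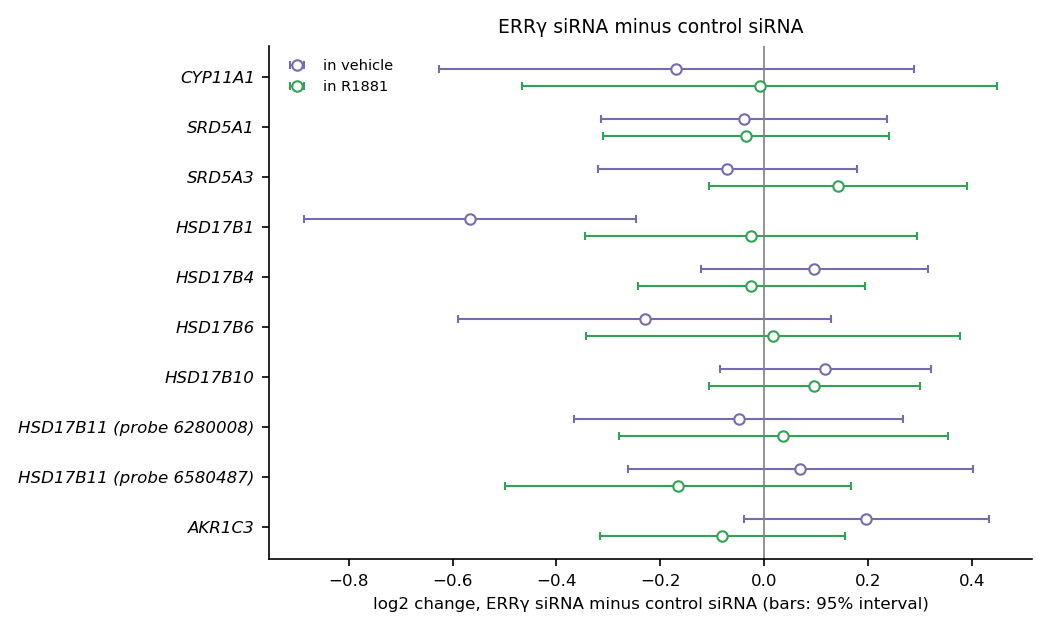
Log2 difference between ERRγ and control siRNA (horizontal axis) of each tested probe (vertical axis), in vehicle and in R1881. Bars are 95% intervals and no point passed the threshold; the *HSD17B1* interval in vehicle runs from -0.89 to -0.25 and lies wholly below 0.

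The difference between the R1881 responses under the 2 siRNAs was tested as an interaction. None of the 10 probes passed limma's test and 1, *HSD17B1*, had an unadjusted p under 0.05; of all probes 0 passed (0%) and 2317 had an unadjusted p under 0.05. The *HSD17B1* interaction was 0.54 ± 0.21 on the log2 scale, with a 95% interval from 0.09 to 0.99 (limma unadjusted p = 0.0226, adjusted p = 0.395). It was 0.73 without array 1 of control siRNA with R1881 (limma adjusted p = 0.0763) and 0.34 without array 2 (0.599). Its fall with R1881, its lower level with the siRNA and this interaction all share the 3 arrays of control siRNA with vehicle, so they are not separate observations. For *CYP11A1* the interaction was 0.16, with an interval from -0.49 to 0.81 (limma adjusted p = 0.882), and for *SRD5A1* it was 0.003 (limma adjusted p = 0.997). The unadjusted 95% interval of a typical probe reached 0.365 to each side. A call after adjustment over all probes needs more, and the *HSD17B1* interaction of 0.54 was not called. Differences between the responses below 0.365, and some above it, could thus be missed.

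Other genes of steroid making, reduction, oxidation and sulfation formed a list of 43, of which 25 had a tested probe (the brightest was used). The central steps after pregnenolone were not measurable: *CYP17A1*, which makes the androgen skeleton, and *HSD3B1* and *HSD3B2*, which oxidise pregnenolone and dehydroepiandrosterone, were detected on no array, as were 8 more, while *SRD5A2*, the main prostatic reductase, and *HSD17B3*, the testicular testosterone-making enzyme, were each detected on 1. With control siRNA and R1881, 4 of the 25 rose and 9 fell, beside 18.9% higher and 20.7% lower of all tested probes. The median log2 change was -0.06, beside -0.01 over all probes. With ERRγ siRNA, 5 rose and 4 fell, beside 17.4% higher and 19.2% lower of all tested probes, also with a median of -0.06. With the siRNA in vehicle or R1881 and in the interaction 0 of the 25 passed limma's test. At an unadjusted p under 0.05 there were 6, 2 and 5, beside 3189, 1366 and 2317 of all 21959 tested probes. In vehicle, 2 passed without background correction or with an offset of 50, beside 473 and 453 of all tested probes.

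The genes that rose with control siRNA were *CYP3A5*, a P450 that hydroxylates testosterone, at a log2 change of 1.89 ± 0.15 (limma adjusted p = 1.33e-07), *HSD17B2*, *CYB5A* and *TSPO*. *HSD17B2*, which oxidises testosterone to androstenedione, was detected on the 6 R1881 arrays and on no vehicle array. It thus passed the filter through the R1881 arrays. On the background-corrected scale only, it was at least 1.45-fold higher. Its measured change, which uses the undetected vehicle signals, passed the threshold (limma adjusted p = 4.3e-05). *CYB5A*, the cytochrome b that aids the lyase step of CYP17A1, rose by 0.68 ± 0.10, and *TSPO*, a protein of the outer mitochondrial membrane that binds cholesterol, by 0.38 ± 0.11 (limma adjusted p = 8.21e-05 and 0.0103). The falls were led by *HSD17B14*, another dehydrogenase of the family, at -1.87 ± 0.14 (limma adjusted p = 1.19e-07). *FDX1*, the ferredoxin that passes electrons to CYP11A1, fell by 0.98 ± 0.11 (limma adjusted p = 8.11e-06), while *CYP11A1* itself rose. *HSD11B2*, which inactivates cortisol, changed by -0.57 ± 0.09, and *SULT1A1*, a sulfotransferase, by -0.56 ± 0.10 (limma adjusted p = 0.000233 and 0.000313). The other 5 falls were of 0.35 to 0.53 on the log2 scale. In the authors' normalized values *CYP3A5* rose by 0.58 and *HSD17B2* by 0.08, and *HSD17B14*, *FDX1* and *HSD11B2* changed by -0.40, -0.15 and -0.17, with the calls kept. With ERRγ siRNA *CYP3A5*, *HSD17B2*, *CYB5A* and *TSPO* rose again, *HSD17B14* (-1.27), *FDX1* (-0.84), *HSD11B2* (-0.79) and *STARD5* (-0.40) fell again, and *HSD17B8* rose by 0.33 (limma adjusted p = 0.0466); the last 2 genes were named after their values were seen. The *HSD17B8* call was lost in the authors' normalized values (limma adjusted p = 0.0523) and without the filter on dim probes (0.0775). It was also lost with the replicate number as a block (0.0631) and with only the compared groups (0.0749). Leaving out a single array lost it in most cases, with the highest adjusted p, 0.225, without array 1 of ERRγ siRNA with vehicle. The *TSPO* call was lost without array 1 or 2 of either ERRγ siRNA group (0.0505 to 0.0573).

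**Figure D4:**
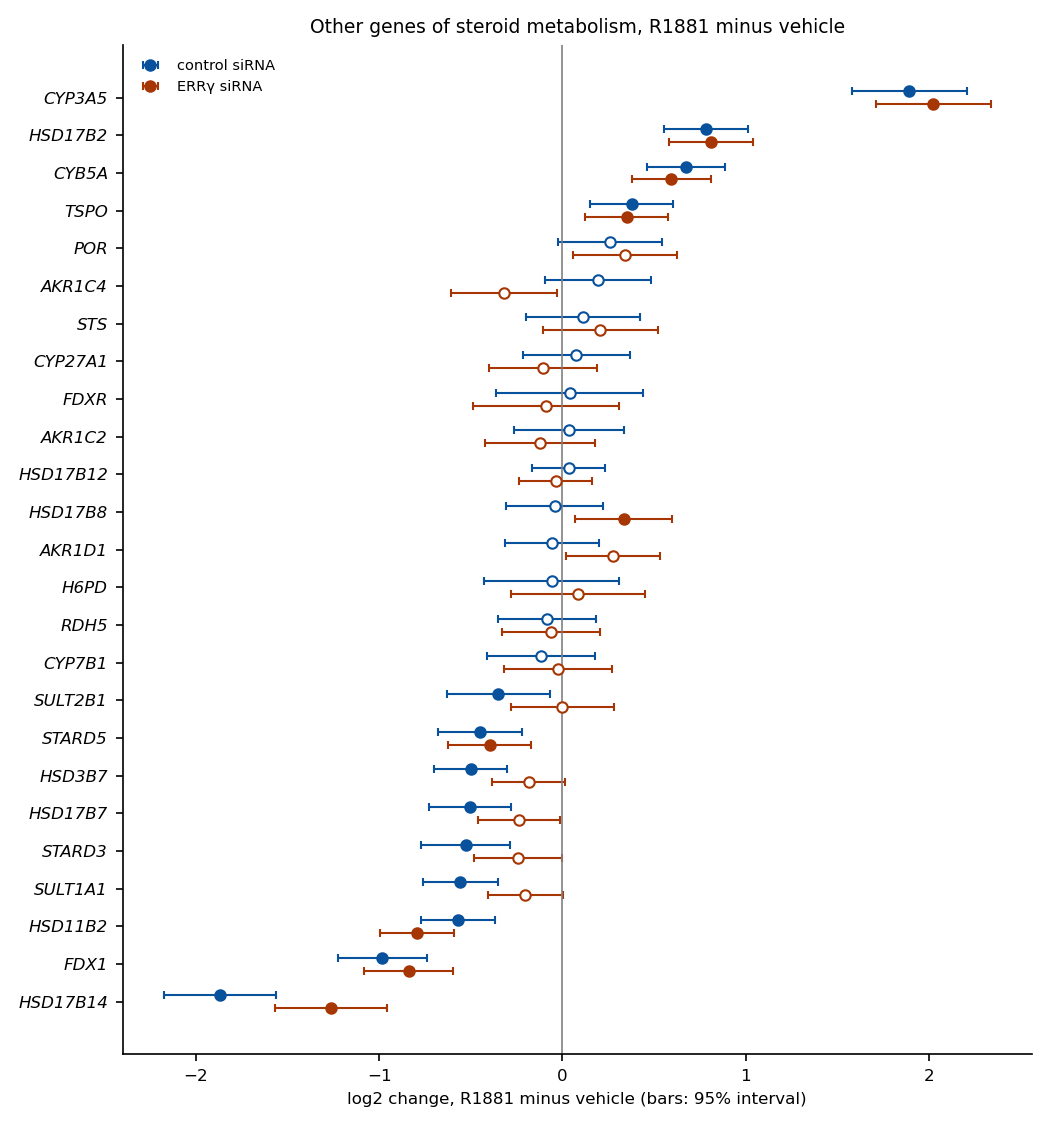
Log2 change with R1881 (horizontal axis) of the 25 other steroid pathway genes with a tested probe (vertical axis), with control and with ERRγ siRNA. Bars are 95% intervals and filled points have an adjusted p under 0.05; *CYP3A5* lies highest and *HSD17B14* lowest with control siRNA, at 1.89 and -1.87, and *HSD17B2* is drawn at its measured change, although it was not detected in vehicle.

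The genes whose signals followed *CYP11A1* most closely over the 12 arrays, among 9895 named genes outside these lists with a probe detected on all 12 arrays, were *GCNT2*, *ANG* and *FAM43A*, with Pearson r of 0.986, 0.984 and 0.977. Their own log2 changes with R1881 were 1.38, 1.19 and 0.71 with control siRNA and 1.42, 1.28 and 0.85 with ERRγ siRNA. For *HSD17B1* the closest were *ZNF526*, *SPACA6* and *TRK1*, a lysine tRNA in the table, at 0.951, 0.950 and 0.944. These correlations are descriptions over arrays that share the treatment, and they carry no test.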

How the data were processed

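RNA of LNCaP cells was profiled on 12 expression bead arrays. The authors deposited, per the file headers, a raw linear signal intensity and a detection p-value for each probe and array. The authors' own normalized table was read as log2, from its range and its fit to the raw signals. How it was normalized, the platform and the build are not stated in the sources used here. Raw intensities were background-corrected with limma's nec (offset 16), quantile-normalized and log2-transformed, in limma 3.58.1 under R 4.3.3. The 92 spike-in controls were left out. Probes detected (p-value under 0.05) on 3 or more of the 12 arrays were tested, 21959 in all. One mean per group was estimated over all 12 arrays with lmFit and eBayes, and two-sided p-values were Benjamini-Hochberg adjusted over all tested probes and called under 0.05. Intervals are 95%. Dim probes and the number of arrays limit the precision. Groups come from the sample titles. Names came from RefSeq accessions where matched (28588 probes), otherwise from the table's symbol. Every member probe was reported, and of 43 other pathway genes the 4 highest and 4 lowest called changes with control siRNA were given with their values. The members and lists were chosen with earlier results of these data known. The model was tested on simulated data. Alternatives varied the background correction, scaling, filter, probe choice, replicate block and arrays, and used the authors' normalized values. The response of 1 gene meant as a check of the treatment and 1 promoter search are not reported here.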

Additional observations from a re-analysis of the deposited data

How the results depend on the processing

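No called change of a member probe turned direction under the alternatives run. Over settings other than leaving out an array, 407 of 415 member changes kept their side of the threshold, 5 lost and 3 gained a call. With arrays left out in turn, 583 of 600 kept it, 15 lost and 2 gained a call. *CYP11A1*, both *HSD17B11* probes and, with control siRNA, *HSD17B1* kept their R1881 calls under every alternative in which they were tested. *AKR1C3* kept its calls too, but it was detected in vehicle only and passed the filter through those arrays. Its kept calls are thus no separate support for the fall. *CYP11A1*, *AKR1C3* and the dimmer *HSD17B11* probe were not tested among the probes detected on all 12 arrays. Of the 6 member probes detected on all 12 arrays, 5 were called for R1881 with control siRNA and 4 with ERRγ siRNA, since fewer probes were tested; of all 14723 such probes 7823 and 7326 were called. For the ERRγ siRNA in vehicle 1 member probe was called (*HSD17B1*) without background correction, with an offset of 50 and when only the compared groups were fitted. Over all probes that comparison gave 473 calls without background correction, 453 with an offset of 50, 139 with median scaling, 155 in the authors' normalized values, 20 with no filter, 116 with only the compared groups and 6 with the replicate number as a block, against 50. The interaction gave 14, 15, 2 and 2 calls over all probes in the first 4 of these settings, against 0. The cause was not tested. Leaving out 1 array gave 6 to 8 member calls for R1881 with control siRNA (7599 to 8620 over all probes, 12 to 13 in the pathway list) and 5 to 7 with ERRγ siRNA (6916 to 8317 and 7 to 9). For the siRNA in vehicle it gave 0 to 1 member calls and 1 to 192 over all probes, lowest without array 1 of control siRNA with vehicle and highest without array 1 of control siRNA with R1881. For the siRNA in R1881 it gave 0 to 0, and for the interaction 0 to 0 member calls and 0 to 162 over all probes, highest without array 1 of control siRNA with R1881. Same-numbered arrays did not deviate together (r from -0.249 to 0.115, 1 of 18 pairs over 0.1, and 4 of 12 arrays closest to their own number), so the numbers were not taken to pair samples; the block left all member counts as they were. Signals near background limit *CYP11A1*, *AKR1C3*, *HSD17B6*, *STAR* and the dimmer *HSD17B11* probe, where the size of a change depends on the background correction. Other members shared this dependence. Without the correction, R1881 changes with control siRNA went from 1.28 to 0.70 for the brighter *HSD17B11* probe and from 0.84 to 0.26 for the dimmer. They went from -0.61 to -0.30 for *HSD17B1* and from 0.41 to 0.18 for *SRD5A3*, but only from 0.42 to 0.40 for *HSD17B4*.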
